A study of Equus caballus with 68 samples.

Results

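The genes described here encode the lysosome's proton pump, a set of its hydrolases and their activators, 4 of its membrane proteins and 3 transcription factors of the MiT/TFE family. These 3 are TFEB, TFE3 and MITF, and the family's further gene TFEC is not a member here. They were taken by symbol: every entry that begins with ATP6V or ATP6AP, and 29 further named genes. In the table of 30371 entries, 49 members were found, of which 23 carry a pump prefix, 19 are hydrolases or activators, 4 are membrane proteins and 3 are MiT/TFE genes. HEXA, MAN2B1 and IDS were not found by symbol and were not analysed here. Of the 49, 46 passed the filter on low values, and ATP6V1B1, ATP6V1E2 and ATP6V0A4 did not. The prefix also took in ATP6V1FNB, a neighbour of the ATP6V1F gene that is not known as a pump subunit, and ATP6AP1L, a relative of ATP6AP1. Both are counted with the pump and accessory genes below, and ATP6V1FNB with the V1 sector.

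Lysosomes are acidified by the V-ATPase, a rotary pump in which the cytosolic V1 sector hydrolyses ATP and the membrane V0 sector carries protons into the lumen. The acid lumen lets glycosidases, sulfatases, lipases, proteases and nucleases break down what a cell takes up, and macrophages, whose work is engulfment, hold many lysosomes. TFEB, TFE3 and MITF bind a short motif shared by many lysosomal promoters, and nutrient signalling at the lysosome surface controls their entry into the nucleus.

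Bone marrow mononuclear cells (BMNC) came from 8 Thoroughbred horses aged 3 to 9 years and were sequenced before culture, at 0 hours (8 libraries). The cells were then kept in each horse's own cell-free synovial fluid, either normal (SF) or inflamed by lipopolysaccharide injected into the joint (ISF). By the study's account SF came from middle carpal joints and ISF from radiocarpal joints, so inflammation and joint of origin cannot be told apart. Each fluid had 8 libraries at 96 hours and at 6 days, and 7 at 48 hours, where Moon is not among them, and at 10 days, where Flash is not. RNA came from 1 well per horse, fluid and time, so every library of a group is from a different horse. All groups share bone marrow cells from the same animals, and the 8 libraries of 0 hours are the shared baseline of both fluids. Both fluids were used with the cells of the same animals, and more fluid was added during culture. The p-values rest on the spread between horses within groups, and the main fit took libraries of the same horse as independent. Deviations from group means correlated at 0.283 over all same-horse pairs.

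The 68 libraries held 15.7 to 36.0 M reads on genes, as recovered from the steps between values. Levels are given in GeTMM, a read count corrected for gene length and library, so levels may be compared between genes. Below, ranges give the lowest and highest library of a group, with n as stated above. Fold changes are differences of mean log2(GeTMM + 1) ± SE from 1 limma fit of all 9 groups, without a term for horse. FDR is the Benjamini-Hochberg adjusted p over all 14570 tested genes. The SF library of Moon at 6 days stood apart: 12797 genes were above 0 in it, against 14783 to 17365 in the other 67. Its values summed to 2.32 M GeTMM, against 0.818 to 1.46 M in the other 67. Of the 46 members tested it lay above the other SF libraries of that time for 24 and below them for 13. This library stayed in the main fit and in the SF ranges given for 6 days. At 96 hours the libraries of Dealings and of Dreamer in ISF each lay nearest to the other of these horses in 200 genes that differ between horses. Their correlations with that other horse were 0.922 and 0.903, and with their own horse -0.167 and -0.140. Of the 68 libraries, 66 lay nearest to their own horse. Horse labels were used as given, and whether these 2 libraries were exchanged was not tested.

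Macrophage markers were high in the cultures. The summed level of 7 macrophage markers was 184–307 (median 212) GeTMM before culture, 14796–27364 (median 22154) at 48 hours in ISF and 7548–13818 (median 9361) in SF. All 7 rose over that step in both fluids. Over the same step 4 of 4 erythroid markers fell in both fluids, T cell markers fell for 4 of 5 in each, B cell markers for 4 of 4 in ISF and 2 of 4 in SF, and neutrophil precursor markers fell for 2 of 6 in ISF and 3 of 6 in SF. In such bulk libraries, fewer cells of a type and less RNA per cell cannot be told apart, and the part of the cell markers in the members' changes was not tested.

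Most lysosomal genes rose in the first 48 hours of culture, in either fluid. In ISF 36 of 46 tested members were higher at 48 hours than at 0 hours and 1 was lower (limma, FDR under 0.05), where 52.7% of all 14570 tested genes changed, 25.3% upward. In SF 34 were higher and 0 lower, where 45.4% of all genes changed, 22.3% upward; 37 members had an unadjusted p under 0.05 there, as in ISF. The median log2 fold change of the members was 1.02 in ISF and 0.96 in SF, beside -0.03 and -0.01 over all genes. For 28 members in ISF and 27 in SF the 48-hour libraries did not overlap with the 0-hour libraries, and every one of these was higher in culture. Such a gap was seen for 27.2% and 21.5% of all genes.

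The later steps added fewer changes. From 48 to 96 hours 14 members rose and 1 fell in ISF (19% of all genes changed, 8.54% upward), or 14 and 0 with the 96-hour ISF libraries of Dealings and Dreamer set aside, and 18 rose and 0 fell in SF (27.3% of all genes, 11.5% upward). From 96 hours to 6 days ATP6V0E2, FUCA1, GLB1, NAGLU and PSAP (5 members) rose in ISF (6.38% of all genes changed, 2.83% upward and 3.54% downward), and 5 members also rose with those 2 libraries set aside. ATP6V0E2 and FUCA1 were lost there without any 1 horse but Moon (FDR up to 0.143 and 0.105). In SF none passed over that step (2.05% of all genes, 0.432% upward and 1.61% downward), and 7 had an unadjusted p under 0.05 by limma, while 1 passed with the horse as a block, 0 by limma voom and 0 without the 6-day SF library of Moon. From 6 to 10 days 2 rose and 1 fell in ISF (10.5% of all genes, 5.09% upward and 5.44% downward) and 1 rose in SF (4.78%, 3.19% upward and 1.59% downward), where 3 passed with the horse as a block. Between 0 hours and 10 days the balance was 44 higher and 1 lower in ISF (74.5% of all genes changed, 36.1% upward) and 41 higher and 0 lower in SF (69.6%, 34.7% upward, 41 members with an unadjusted p under 0.05).

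**Figure D1:**
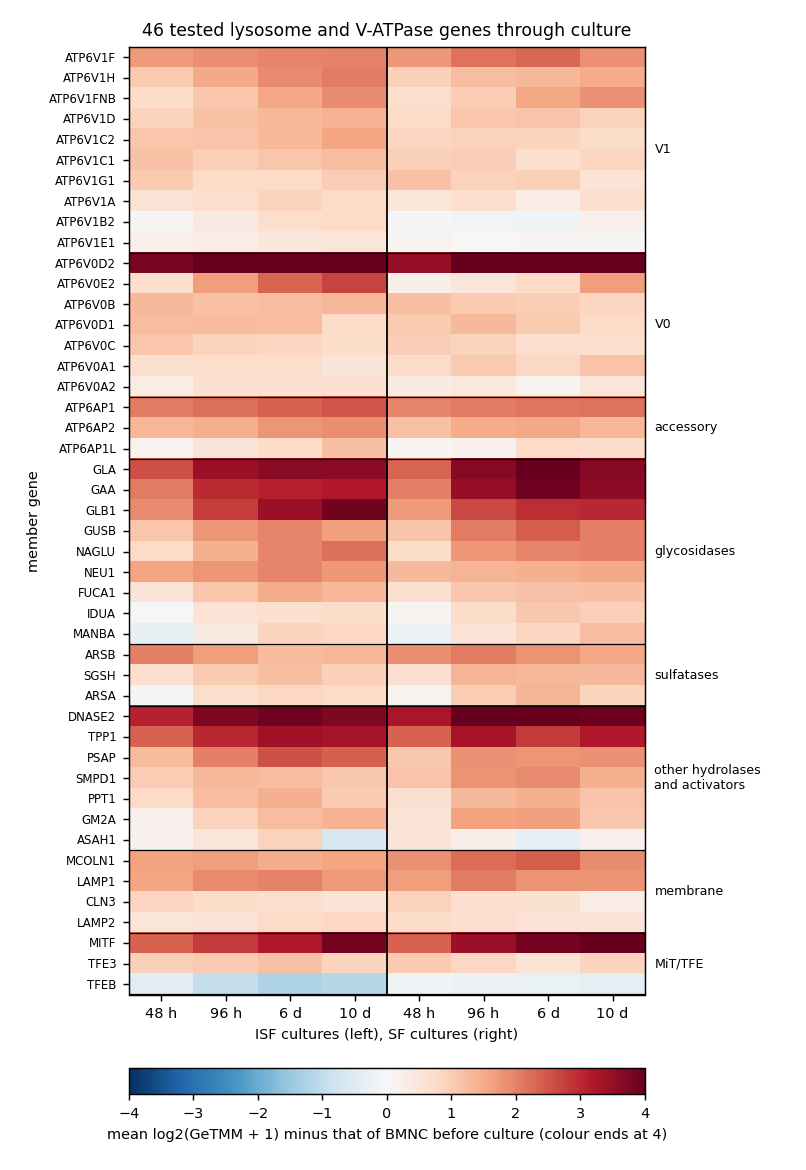
Heat map of the 46 tested members (rows, grouped by role) over the 4 culture times in ISF (left) and SF (right); colour is the group mean of log2(GeTMM + 1) minus that of BMNC before culture, red for higher, blue for lower. ATP6V0D2, GLA, GAA, GLB1, DNASE2, TPP1 and MITF are the deepest red, and TFEB is blue in every culture group, most of all in ISF.

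The pump genes rose early. Of the 20 tested pump and accessory genes, 16 rose and 0 fell from 0 to 48 hours in ISF, and 14 rose and 0 fell in SF. Of all genes 25.3% and 22.3% rose over this step. From 48 to 96 hours ATP6V0E2 rose in ISF and ATP6AP2 in SF, the latter not without Dealings, Dreamer or Lurie (FDR up to 0.0688). With the horse as a block ATP6V1B2 and ATP6V1H also rose in ISF over this step (FDR = 0.0397 and 0.0173). The summed level of the 23 pump and accessory genes was 3496 GeTMM in the median library before culture, and the medians of the 8 culture groups lay between 6795 and 8053 GeTMM. By median level ATP6V0C, the proteolipid of the proton-carrying ring, led in every group, with 863–1296 GeTMM (median 1025) before culture and 1835–3111 GeTMM (median 2079) at 48 hours in ISF.

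The V1 sector is taken here as the 10 tested genes with its prefix, ATP6V1FNB among them. Their median log2 fold change was 0.99 in ISF and 0.80 in SF over the first 48 hours. Of these 10, 8 and 7 were higher, as were 25.3% and 22.3% of all genes. ATP6V1FNB, not known as a pump subunit, was among those higher in each fluid (log2 fold changes 0.74 and 0.70). ATP6V1F, a subunit of the central stalk, rose most, from 233–409 GeTMM (median 308) to 779.5–1626 GeTMM (median 992) in ISF (log2 fold change 1.71 ± 0.19, FDR = 8.01e-12) and 764–1447 GeTMM (median 899) in SF (log2 fold change 1.75 ± 0.19, FDR = 5.33e-12). Its 0-hour libraries lay below every 48-hour library in both fluids. ATP6V1H, which regulates and couples the sectors, went from 23.3–38.4 GeTMM (median 30.2) to 51.9–81.3 GeTMM (median 61.1) in ISF (log2 fold change 1.05 ± 0.17, FDR = 6.79e-07) and reached 74.7–191 GeTMM (median 125) there at 10 days. The nucleotide-binding subunits had smaller fold changes. ATP6V1A, the catalytic subunit, rose in ISF over 48 hours (log2 fold change 0.54 ± 0.22, FDR = 0.0332), though not without Catnip, Dealings, Dreamer or RimRun (FDR up to 0.0816), and ATP6V1B2, the B subunit found in most tissues, did not pass in either fluid (log2 fold change 0.05 in ISF and -0.09 in SF).

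Several pump subunits are encoded by more than 1 gene. ATP6V1B1, known from kidney and inner ear, reached no more than 0.189 GeTMM in any library, and ATP6V1E2, known from testis, no more than 0.134. ATP6V1C2 made up 2.29–6.47% (median 4.76%) of the summed level of ATP6V1C1 and ATP6V1C2 before culture and 4.32–12.3% (median 9.13%) at 10 days in ISF. ATP6V0A4, the kidney form of the a subunit, had at most 0.914 GeTMM before culture and was at 0 in all 7 ISF libraries of 10 days. TCIRG1, which encodes the a3 form of lysosomes and osteoclasts and has no pump prefix, supplied 76.3–89.9% (median 86.1%) of the summed a-subunit level of ATP6V0A1, ATP6V0A2 and TCIRG1 before culture. At 10 days the share was 76.2–89.2% (median 87.1%) in ISF and 63.6–81.3% (median 67.7%) in SF. TCIRG1 itself was higher in ISF than in SF at that time (log2 fold change 0.78 ± 0.22, FDR = 0.00882), and ATP6V0A1 did not pass (log2 fold change -0.63, FDR = 0.0513). With the horse as a block ATP6V0A1 was lower in ISF (FDR = 0.0263), as it was with Moon's 6-day SF library set aside (FDR = 0.013).

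ATP6V0D2, the d2 form of the V0 stalk subunit known from osteoclasts and macrophages, rose most of all members. It lay at 0–0.353 GeTMM (median 0.171) before culture. At 48 hours it lay at 4.74–37.7 GeTMM (median 19.1) in ISF (log2 fold change 3.79 ± 0.73, FDR = 1.40e-05) and 1.06–39.5 GeTMM (median 21.8) in SF (log2 fold change 3.49 ± 0.73, FDR = 7.03e-05), with no overlap with the 0-hour libraries in either. By 10 days it was at 4.06–146 GeTMM (median 60.02) in ISF and 2.84–62.4 GeTMM (median 30.8) in SF, log2 fold changes of 5.25 ± 0.73 and 4.18 ± 0.73 from 0 hours. Its fold changes on the log2(GeTMM + 1) scale understate the linear change, since the 0-hour level is under 1. ATP6V0D1, the d1 form used in most cells, held 148–233 GeTMM (median 188) before culture and 359.6–512 GeTMM (median 449) at 48 hours in ISF (log2 fold change 1.23 ± 0.13, FDR = 3.78e-12). It fell there from 6 to 10 days (log2 fold change -0.45 ± 0.13, FDR = 0.0179), though not without Catnip, Dealings or Ollie (FDR up to 0.0667). ATP6V0D2 thus made up 0–0.239% (median 0.1%) of the d-subunit level before culture and 1.24–31.4% (median 16.8%) at 10 days in ISF.

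Catnip and Lurie held the low end of these ranges. In Catnip ATP6V0D2 ran from 1.12 to 4.74 GeTMM over all 8 cultures, and in Lurie from 1.06 to 19.5, while the 44 cultures of the other 6 horses ran from 17.8 to 146. These 2 horses had reads on the gene in every culture (at least 25 in Catnip and 31 in Lurie). ATP6V0D1 had no such gap, although its medians over cultures were the lowest in these horses, at 354 GeTMM in Catnip and 361 in Lurie against 372 to 470.0 in the others. Genes known from osteoclasts and macrophages varied. ACP5, the tartrate-resistant phosphatase, also had its lowest medians in these horses, at 220.0 and 158 GeTMM against 262 to 514 in the others, and Catnip had the lowest of all 8 horses for TCIRG1, GPNMB and CD68. The protease CTSK had medians of 2396 and 4852, within the 1691 to 6383 of the others, as did DCSTAMP, while OCSTAMP and MMP9 were highest in Lurie. The pair was picked after the values were seen, so the gap is a description. At 10 days ATP6V0D2 was 4.06–146 GeTMM (median 60.02) in ISF against 2.84–62.4 GeTMM (median 30.8) in SF, which did not pass (log2 fold change 1.07 ± 0.76, FDR = 0.344) but did with the horse as a block (FDR = 0.0311), with ISF higher in 7 of 7 horses.

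**Figure D2:**
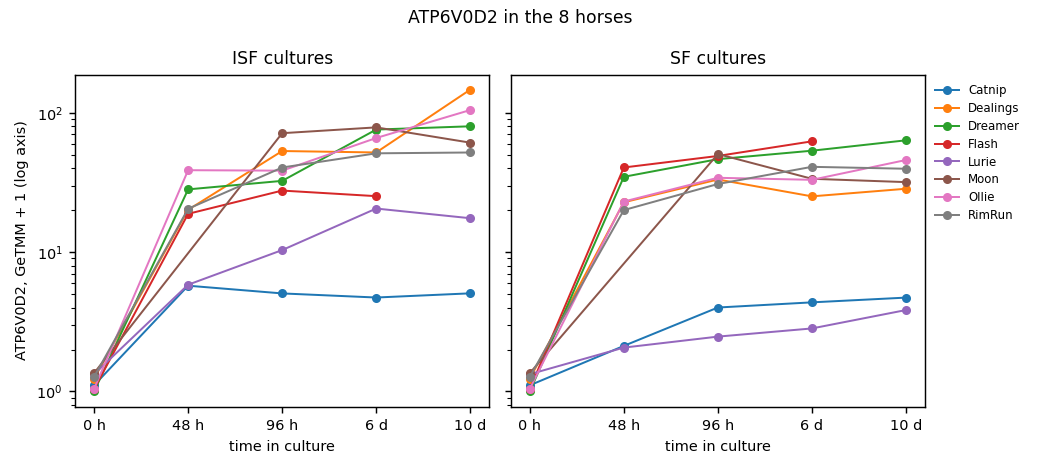
ATP6V0D2 in each horse through culture in ISF (left) and SF (right), as GeTMM + 1 on a log axis; 1 line per horse joins its libraries. All 8 horses start near the floor, and Catnip and, below 20 GeTMM, Lurie run under the other 6.

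No entry carried the symbol ATP6V0E1, so the e1 form of the small V0 subunit was not followed here. ATP6V0E2, an e2-type small subunit of the V0 sector, was scarce and had rising medians in ISF. From 0.598–2.01 GeTMM (median 1.36) before culture it went to 1.13–3.28 GeTMM (median 2.60) at 48 hours, 3.03–8.66 GeTMM (median 6.11) at 96 hours and 8.22–22.1 GeTMM (median 13.1) at 10 days. In SF it was 1.42–3.63 GeTMM (median 1.97) at 96 hours and rose in the last step, from 1.66–6.42 GeTMM (median 3.05) at 6 days to 2.76–10.4 GeTMM (median 6.72) at 10 days (log2 fold change 0.87 ± 0.22, FDR = 0.013). That call was lost without Lurie, Moon or Ollie (FDR up to 0.0766). Of the accessory proteins, ATP6AP1, needed for pump assembly, rose from 111–159 GeTMM (median 116) to 404–674 GeTMM (median 499) in ISF (log2 fold change 2.06 ± 0.15, FDR = 5.12e-19). ATP6AP2, also known as the prorenin receptor, rose from 92–165 GeTMM (median 119) to 273–397 GeTMM (median 281) (log2 fold change 1.32 ± 0.11, FDR = 3.52e-16). Neither overlapped with its 0-hour libraries.

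Hydrolases rose in the first 48 hours and again up to 96 hours. Of the 19 tested hydrolases and activators, 14 rose from 0 to 48 hours in each fluid, where 25.3% (ISF) and 22.3% (SF) of all genes rose. From 48 to 96 hours 13 rose in ISF and 16 in SF, where 8.54% and 11.5% of all genes rose, and none fell in either step. Over the latter step ARSA, DNASE2, GM2A and PPT1 were lost in ISF without Dreamer, DNASE2 and PPT1 also without Lurie or Ollie (FDR up to 0.0961). In SF SMPD1 was lost without Dreamer or Ollie and TPP1 without any 1 horse but Flash or Moon (FDR up to 0.117). The median log2 fold change of the 19 from 48 to 96 hours was 0.64 in ISF and 0.82 in SF, beside 0.14 and 0.15 for the 20 pump and accessory genes. This contrast between the lists was not itself tested. PSAP, the precursor of the saposins that help glycosidases reach their lipid substrates, had by far the highest level, from 1485–1898 GeTMM (median 1695) before culture to 3243–4900.4 GeTMM (median 4149.8) at 48 hours and 7282–13047 GeTMM (median 9862) at 6 days in ISF. Each of the first 3 steps in ISF was called for PSAP (log2 fold changes 1.26, 0.76 and 0.51), though the last was lost without Catnip, Dealings, Dreamer, Lurie, Ollie or RimRun (FDR up to 0.16). The summed level of all hydrolases and activators without PSAP had a median of 992 GeTMM before culture, 2532 at 48 hours and 3492 at 96 hours in ISF, and 2257 and 4272 in SF.

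Among glycosidases, GLA, the alpha-galactosidase lost in Fabry disease, rose from 20.3–29.5 GeTMM (median 26.2) to 107–199 GeTMM (median 166) in ISF (log2 fold change 2.57 ± 0.17, FDR = 6.52e-21) and 98.5–201 GeTMM (median 130.3) in SF (log2 fold change 2.34 ± 0.17, FDR = 4.85e-19). GLB1, the beta-galactosidase, started at 24.8–28.7 GeTMM (median 26.9) and climbed at every step in ISF, to 79.6–122 GeTMM (median 105), 162–221 GeTMM (median 189), 245–397 GeTMM (median 292) and 299–613 GeTMM (median 399). All 4 of its steps passed in ISF, the last not without Dealings, Flash, Lurie, Ollie or RimRun (FDR up to 0.207), and its 0-hour libraries lay below those of every later time. GAA, which breaks down glycogen, went from 8.49–16.97 GeTMM (median 13.8) to 37.7–97.8 GeTMM (median 67.3) in ISF and 26.3–99.5 GeTMM (median 49.5) in SF over 48 hours (log2 fold change 2.09 ± 0.22, FDR = 4.18e-12 and log2 fold change 2.02 ± 0.22, FDR = 1.68e-11). IDUA and MANBA, which act on glycosaminoglycans and on mannosides, passed in neither fluid over the first 48 hours and rose in both from 48 to 96 hours. Of the other hydrolases, DNASE2, which digests the DNA of engulfed cells, rose from 30.6–42.3 GeTMM (median 34.9) to 198–457 GeTMM (median 302) in ISF (log2 fold change 3.08 ± 0.20, FDR = 1.17e-20) and 226–663 GeTMM (median 293) in SF (log2 fold change 3.26 ± 0.20, FDR = 1.37e-21). TPP1, a tripeptidyl peptidase, rose from 30.5–58.9 GeTMM (median 49.5) to 169–345 GeTMM (median 259) and 136–416 GeTMM (median 228) (log2 fold change 2.37 ± 0.35, FDR = 4.25e-08 and log2 fold change 2.35 ± 0.35, FDR = 6.78e-08).

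ARSB, the sulfatase of dermatan and chondroitin sulfate, rose early in ISF and went from 45.95–71.5 GeTMM (median 62.1) to 117–408 GeTMM (median 284) at 48 hours (log2 fold change 2.01 ± 0.24, FDR = 2.55e-10) and was at 125–189.6 GeTMM (median 150.0) at 10 days. None of its later steps passed. ASAH1, the acid ceramidase, had an entry too low to follow, at 0 to 12.9 GeTMM over all libraries. It passed no comparison, except with the horse as a block at 6 days between the fluids (FDR = 0.023) and from 6 to 10 days in ISF (FDR = 0.0308). By horse it reached 0.68 GeTMM at most in the cultures of Catnip and 0.55 in those of RimRun, beside medians of 8.19 in Ollie and 7.64 in Flash.

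All 4 membrane proteins rose over the first 48 hours in both fluids, as did 25.3% of all genes in ISF and 22.3% in SF. The 4 passed no later step, except that LAMP1 and MCOLN1 rose from 48 to 96 hours in SF with the horse as a block (FDR = 0.0301 and 0.0413). LAMP1, a main glycoprotein of the lysosomal membrane, went from 316–423 GeTMM (median 365) to 721–1659 GeTMM (median 1067) in ISF (log2 fold change 1.58 ± 0.20, FDR = 7.86e-10) and 801–1604 GeTMM (median 1211) in SF (log2 fold change 1.68 ± 0.20, FDR = 1.92e-10). LAMP2, its relative used in chaperone-mediated autophagy, rose less, from 170.0–274 GeTMM (median 213) to 246–386 GeTMM (median 309) in ISF (log2 fold change 0.49 ± 0.12, FDR = 6.67e-04) and 320.2–452 GeTMM (median 364) in SF (log2 fold change 0.75 ± 0.12, FDR = 8.06e-07). MCOLN1, the calcium channel TRPML1, went from 14.1–22.3 GeTMM (median 18.01) to 35.2–79.7 GeTMM (median 56.2) and 46.4–103 GeTMM (median 61.9) (log2 fold change 1.6 ± 0.17, FDR = 6.67e-12 and log2 fold change 1.81 ± 0.17, FDR = 1.11e-13). CLN3, the protein lost in juvenile Batten disease, went from 20.3–38.4 GeTMM (median 33.4) to 44.01–77.4 GeTMM (median 56.3) and 46.6–85.6 GeTMM (median 62.2) (log2 fold change 0.85 ± 0.15, FDR = 2.32e-06 and log2 fold change 0.92 ± 0.15, FDR = 5.39e-07). The 48-hour libraries of LAMP1, MCOLN1 and CLN3 lay above all 0-hour libraries in both fluids, and those of LAMP2 only in SF.

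The 3 regulators went different ways. MITF, scarce at 1.36–3.31 GeTMM (median 2.24) before culture, rose to 11.7–19.99 GeTMM (median 16.8) at 48 hours in ISF (log2 fold change 2.35 ± 0.19, FDR = 1.06e-16) and 10.6–24.4 GeTMM (median 15.4) in SF (log2 fold change 2.36 ± 0.19, FDR = 1.18e-16), and lay at 38.99–53.02 GeTMM (median 43.5) and 36.7–72.5 GeTMM (median 48.3) at 10 days. TFE3 rose once, from 15.5–24.4 GeTMM (median 17.8) to 32.1–41.1 GeTMM (median 34.9) in ISF (log2 fold change 0.94 ± 0.16, FDR = 2e-06) and 34.96–46.7 GeTMM (median 38.9) in SF (log2 fold change 1.05 ± 0.16, FDR = 2.70e-07), and passed no later step. For both genes no 48-hour library overlapped with the 0-hour libraries.

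TFEB was the single tested member called lower than before culture, at 48 hours and at 10 days in ISF. In ISF it went from 137–179 GeTMM (median 155) before culture to 88.7–165 GeTMM (median 102) at 48 hours (log2 fold change -0.46 ± 0.19, FDR = 0.0332, lower in 6 of 7 horses) and 54.9–132 GeTMM (median 80.8) at 96 hours (log2 fold change -0.50 ± 0.19, FDR = 0.048, lower in 7 of 7). By 10 days it was at 54.6–90.6 GeTMM (median 66.7), below all 0-hour libraries (log2 fold change -1.15 ± 0.19, FDR = 1.67e-07). In SF it held 92.6–178 GeTMM (median 150.1) at 48 hours and 71.02–178 GeTMM (median 129) at 10 days, and the change from 0 hours to 10 days did not pass (log2 fold change -0.37 ± 0.19, FDR = 0.0761) except with the horse as a block (FDR = 0.0155). The 2 early steps in ISF were close to the threshold: without Catnip, Dealings, Dreamer or Lurie the FDR of the first was 0.0742, 0.0712, 0.106 and 0.0899, and with the 96-hour ISF libraries of Dealings and Dreamer set aside that of the second was 0.168. The second was also lost without Catnip, Dealings, Dreamer, Flash, Lurie, Ollie or RimRun (FDR up to 0.14). As a share of the summed level of the 3 genes, TFEC not counted, TFEB was 87.1–89.1% (median 88.3%) before culture, 39.2–53.4% (median 44.8%) at 10 days in ISF and 49.4–63.5% (median 59.7%) in SF. MITF took 0.693–2.03% (median 1.43%) before culture and 24.98–36.6% (median 28.8%) and 21.8–25.5% (median 24.97%) at 10 days.

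**Figure D3:**
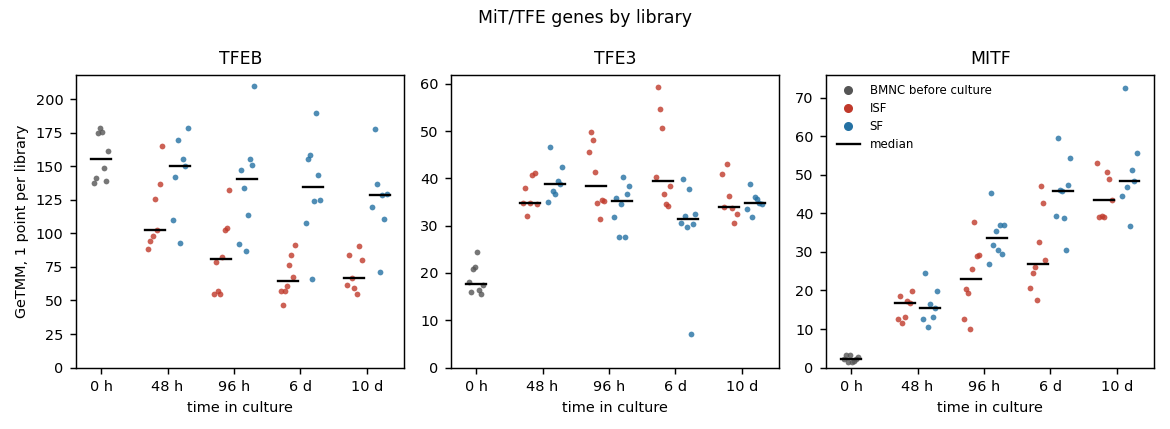
TFEB, TFE3 and MITF in GeTMM (vertical axes, linear) by time in culture, 1 point per library, with black lines at the group medians. TFEB in ISF sinks from about the 0-hour range to below 91 GeTMM at 10 days while the SF medians stay higher, TFE3 steps up once with 1 low SF library at 6 days, and MITF climbs in both fluids.

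The comparison of the fluids at each time asked how cultures in ISF differed from cultures in SF. At 48 hours no member passed (limma, FDR under 0.05), 1 had an unadjusted p under 0.05, and limma voom called 0 as well; 1.68% of all genes were called at this time. At 96 hours 2 members were higher in ISF and 4 lower, 13% of those tested beside 10.5% of all genes (6.16% higher and 4.3% lower). At 6 days 13 were higher and 10 lower, 50% of those tested beside 30.2% of all genes, and at 10 days 11 were higher and 1 lower, 26.1% beside 20.8%. The groups did not overlap for 0 members at 48 and 96 hours (1.06% and 2.11% of all genes), 2 at 6 days (3.34%) and 2 at 10 days (4.96%). The median log2 fold change of the members was 0.04, -0.03, 0.17 and 0.12 at the 4 times, and that of all genes lay between -0.02 and 0. At 96 hours and 10 days the members' share of calls was near the background.

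The calls at 6 days depended on the SF library of Moon, on the groups in the fit and on how the spread was estimated. Setting that library aside moved fold changes as well, which became smaller for TFE3 and larger for PSAP. Without the SF library of Moon 13 members were higher and 7 lower, with 7 calls lost and 4 gained (ATP6V0B, ATP6AP1 and ATP6AP2 higher, ARSB lower), and 14 were higher and 3 lower at 10 days. A fit of the ISF and SF libraries of 6 days alone called 3 higher and 4 lower. The same fit without the SF library of Moon called 11 higher and 5 lower. TFE3 (FDR = 0.143), ATP6V1H (0.122), ATP6V1E1 (0.081), PSAP (0.0689) and GLB1 (0.0629) were lost in the former and passed in the latter. ARSA, DNASE2, FUCA1 and GLA were lost in both. The like fit at 10 days lost ATP6V1H (FDR = 0.0807) and PSAP (FDR = 0.0617). At 96 hours, with the ISF libraries of Dealings and Dreamer set aside, 2 members were higher (ATP6V0E2 and ATP6V1B2) and 1 lower (TFEB). With the horse as a block 15 were higher and 3 lower at 10 days. Without Dealings or Lurie 7 members were called at 10 days, and without either of them 3 at 96 hours.

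Cell markers moved with the fluids too. At 6 days 5 of 5 T cell, 4 of 4 B cell and 5 of 6 neutrophil precursor markers were lower in ISF, and 3 of 4 cell cycle markers were higher. The summed T cell markers were 8.57–47.3 (median 32.4) GeTMM in ISF and 28.6–228 (median 129) in SF at 6 days, and 4.33–14.8 (median 7.61) and 23.5–199 (median 103) at 10 days. The summed neutrophil precursor markers were 2.76–2393 (median 192) and 89.4–4799 (median 1613) at 6 days. Of 7 macrophage markers 1 was higher and 1 lower at 6 days, and 1 higher at 10 days, with sums of 14661–100396 (median 58758) in ISF and 20627–99905 (median 37453) in SF at 6 days. The mean log2 level of these 7 at 6 days was 10.87 in ISF and 10.50 in SF. At 10 days 5 of 5 fibroblast or stromal markers were lower in ISF, with sums of 0.123–49.2 (median 0.526) in ISF and 0.406–4038 (median 27.6) in SF. Of 5 tested osteoclast markers 3 were higher and 1 lower in ISF at 6 days, and 2 higher and 1 lower at 10 days, with sums of 5833–27031 (median 18368) and 3788–10625 (median 7447) at 10 days, and CALCR, the calcitonin receptor, was at 0 in the median library of both fluids at 48 hours. The part of these markers in the members' differences was not tested.

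**Figure D4:**
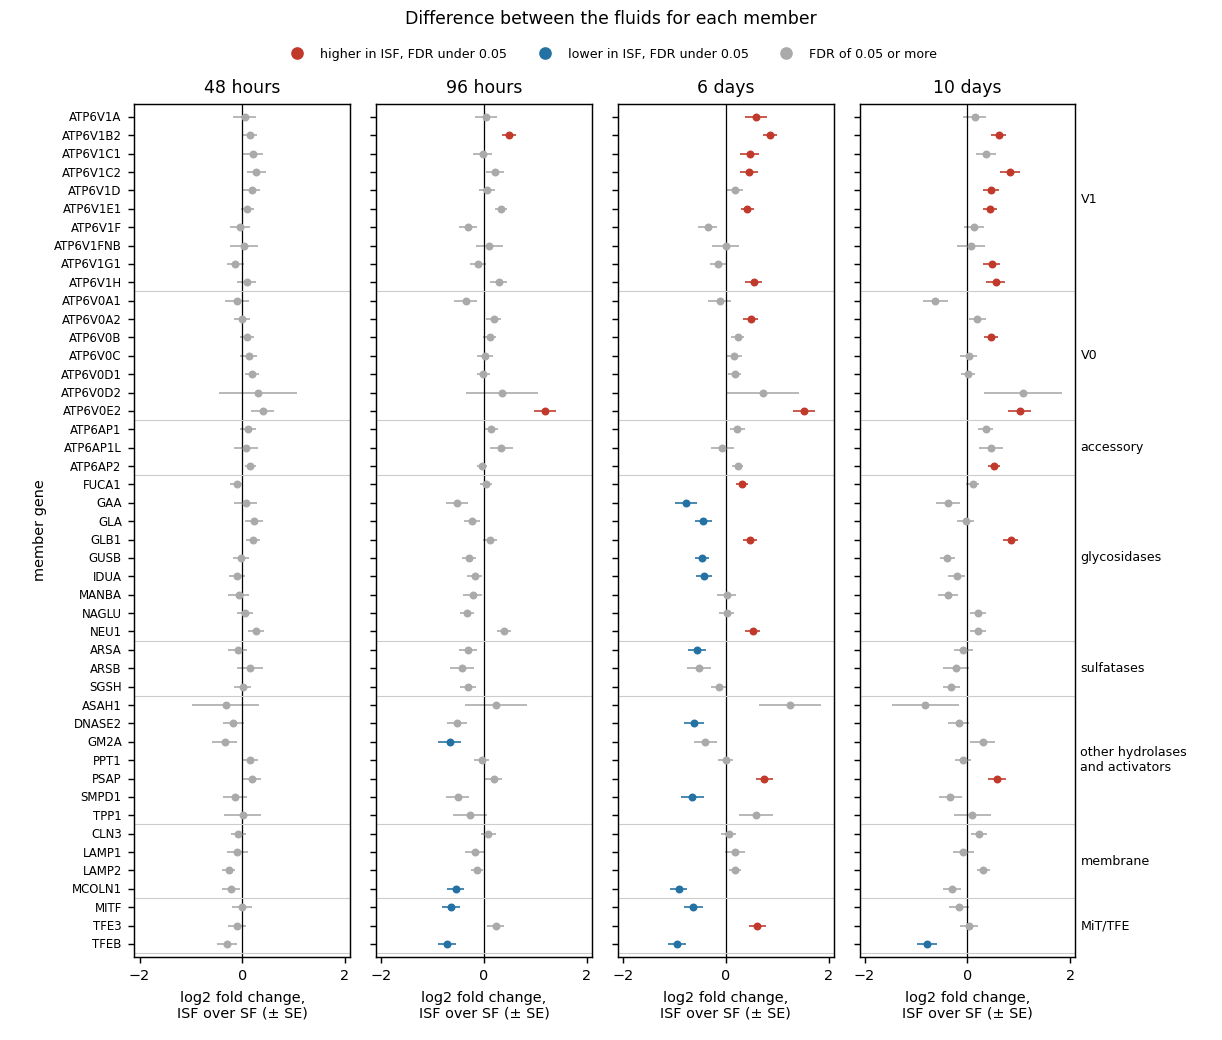
Log2 fold change of ISF over SF with its SE for the 46 tested members (rows, grouped by role) at each culture time; red and blue mark FDR under 0.05 for higher and lower in ISF, grey the rest. The pump rows carry red and no blue at 6 and 10 days, the hydrolase rows carry both at 6 days, and TFEB is blue from 96 hours on.

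The pump genes that differed were higher in ISF. Of the 20 tested pump and accessory genes, 2 were higher at 96 hours, 8 at 6 days and 9 at 10 days, with 0 lower at these times, where 6.16%, 16.7% and 9.95% of all genes were higher. With Moon's 6-day SF library set aside the counts were 3, 9 and 11 higher, and 1 lower at 10 days (ATP6V0A1). Their median log2 fold change was 0.11, 0.23 and 0.45 at these times. ATP6V1B2 passed at all 3. It lay at 306–558 GeTMM (median 413) in ISF and 230.3–329 GeTMM (median 301) in SF at 96 hours (log2 fold change 0.48 ± 0.14, FDR = 0.0144), at 332–787 GeTMM (median 504) and 208–370.2 GeTMM (median 282) at 6 days (log2 fold change 0.87 ± 0.14, FDR = 1.09e-06), and at 345–711 GeTMM (median 581) and 260.4–564 GeTMM (median 367) at 10 days (log2 fold change 0.61 ± 0.15, FDR = 0.00143). It was higher in ISF in every horse at each of these times, although the groups overlapped, and the call at 96 hours was lost without Lurie (FDR = 0.061). The 0-hour libraries held 258–363 GeTMM (median 318), and from them to 10 days ATP6V1B2 rose in ISF (log2 fold change 0.81 ± 0.14, FDR = 7.56e-07) and did not pass in SF (log2 fold change 0.20 ± 0.14, FDR = 0.202).

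ATP6V0E2 had the largest fold change between the fluids of the members called at each of these times. At 96 hours it was 3.03–8.66 GeTMM (median 6.11) in ISF and 1.42–3.63 GeTMM (median 1.97) in SF (log2 fold change 1.18 ± 0.21, FDR = 6.55e-05). At 6 days it was 7.76–18.5 GeTMM (median 9.42) and 1.66–6.42 GeTMM (median 3.05) (log2 fold change 1.52 ± 0.21, FDR = 7.47e-08), and here no ISF library overlapped with an SF library, as for 3.34% of all genes. At 10 days it was 8.22–22.1 GeTMM (median 13.1) and 2.76–10.4 GeTMM (median 6.72) (log2 fold change 1.02 ± 0.23, FDR = 5.90e-04). Every horse had the higher level in ISF at all 3 times. ATP6V1E1, a peripheral stalk subunit, passed at 6 days (log2 fold change 0.42 ± 0.12, FDR = 0.00638, 8 of 8 horses), from 214–355 GeTMM (median 267) in ISF and 158–338 GeTMM (median 191) in SF, and at 10 days (log2 fold change 0.44 ± 0.13, FDR = 0.0106, 6 of 7 horses), though not without Dealings or Lurie (FDR up to 0.111).

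ATP6V1H passed at both late times as well. It lay at 64.4–144 GeTMM (median 123) in ISF and 51.2–151 GeTMM (median 72.1) in SF at 6 days (log2 fold change 0.54 ± 0.17, FDR = 0.0104, 7 of 8 horses) and at 74.7–191 GeTMM (median 125) and 52.3–124 GeTMM (median 95.3) at 10 days (log2 fold change 0.55 ± 0.18, FDR = 0.0223, 7 of 7 horses). The first call was lost without Lurie (FDR = 0.0598) and the second without Dealings, Dreamer or Lurie (FDR up to 0.22). ATP6AP2 passed at 10 days, with 399–523 GeTMM (median 425) in ISF and 251–356 GeTMM (median 321) in SF (log2 fold change 0.52 ± 0.11, FDR = 4.92e-04). It and GLB1 were the 2 members whose fluids did not overlap at that time, as did 4.96% of all genes. The other pump genes called at 10 days were ATP6V0B, ATP6V1C2, ATP6V1D and ATP6V1G1, with log2 fold changes of 0.46, 0.83, 0.46 and 0.47. All of these but ATP6V1C2 were lost without Dealings or without Lurie, ATP6V1D and ATP6V1G1 also without Catnip, and ATP6V1G1 without Dreamer or RimRun (FDR up to 0.174). ATP6V0A2, ATP6V1A, ATP6V1C1 and ATP6V1C2 were also called at 6 days (log2 fold changes 0.49, 0.58, 0.46 and 0.45). Without the SF library of Moon, ATP6V1A and ATP6V1C1 were not (FDR = 0.172 and 0.298), and with the whole horse Moon left out ATP6V0A2 was not either (FDR = 0.0563). ATP6V1A was lost without Lurie or Moon (FDR up to 0.244), ATP6V1C1 without Catnip, Dealings, Dreamer, Lurie, Moon or Ollie (FDR up to 0.442) and ATP6V1C2 without Catnip, Dealings, Dreamer, Flash, Ollie or RimRun (FDR up to 0.164).

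**Figure D5:**
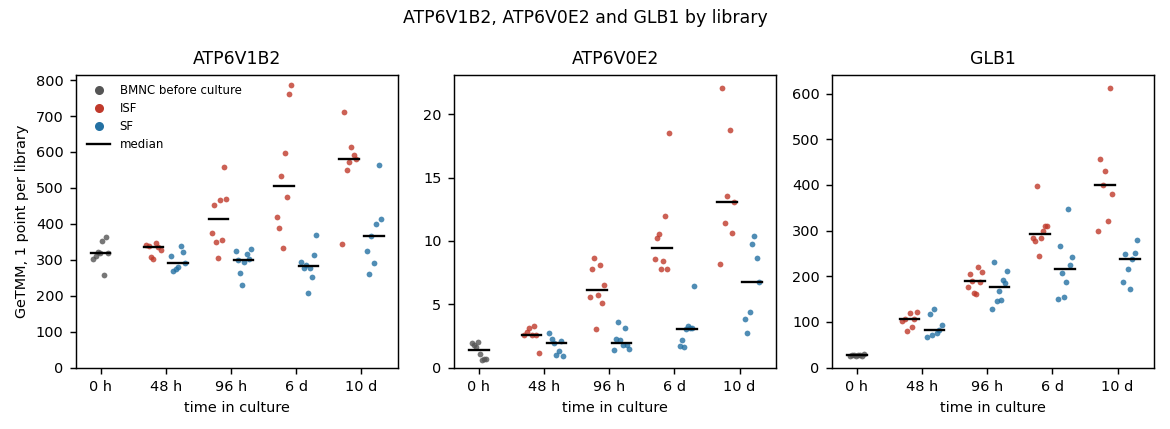
ATP6V1B2, ATP6V0E2 and GLB1 in GeTMM (vertical axes, linear) by time in culture, 1 point per library, with black lines at the group medians. The ISF medians lie above the SF medians at all 4 times; the points of the fluids overlap except for ATP6V0E2 at 6 days and GLB1 at 10 days.

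Hydrolases moved both ways in ISF. At 6 days 4 of the 19 tested were higher and 7 lower (16.7% and 13.6% of all genes), and at 10 days 2 were higher and 0 lower (9.95% and 10.8%), so that the shares higher were near the background. At 96 hours GM2A, the activator of ganglioside breakdown, was lower (log2 fold change -0.67 ± 0.23, FDR = 0.0454, 6 of 8 horses), though not without Dealings, Dreamer, Lurie, Ollie or RimRun (FDR up to 0.167). Without the SF library of Moon 3 were higher and 4 lower at 6 days, and 2 higher and 1 lower at 10 days. PSAP was higher at 6 days, with 7282–13047 GeTMM (median 9862) in ISF and 3093–12636 GeTMM (median 5735) in SF (log2 fold change 0.75 ± 0.16, FDR = 2.67e-04, 7 of 8 horses), and at 10 days, with 6438–12715 GeTMM (median 8379.7) and 4891–7357 GeTMM (median 5639) (log2 fold change 0.57 ± 0.17, FDR = 0.0136, 7 of 7), the latter lost without Dealings, Dreamer or Lurie (FDR up to 0.125). The highest SF library of PSAP at 6 days was that of Moon, and without it the log2 fold change was 0.92. GLB1 was higher at 6 days, with 245–397 GeTMM (median 292) in ISF and 151–348 GeTMM (median 216) in SF (log2 fold change 0.47 ± 0.14, FDR = 0.00579), and at 10 days, with 299–613 GeTMM (median 399) and 173–280.1 GeTMM (median 237) (log2 fold change 0.85 ± 0.15, FDR = 1.21e-05). All 7 ISF libraries of GLB1 lay above all 7 SF libraries at 10 days.

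The other 2 that were higher at 6 days were NEU1 and FUCA1. NEU1, a sialidase, lay at 121–178 GeTMM (median 138) in ISF and 80.5–135 GeTMM (median 96.4) in SF (log2 fold change 0.52 ± 0.14, FDR = 0.00316), and FUCA1, a fucosidase, at 275–389 GeTMM (median 337) and 195–354 GeTMM (median 258) (log2 fold change 0.31 ± 0.12, FDR = 0.0322), each higher in 8 of 8 horses. Without the SF library of Moon the FDR was 0.00151 for NEU1 and 0.079 for FUCA1, and FUCA1 was also lost without Catnip or Dreamer (FDR up to 0.123).

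Lower in ISF at 6 days were the glycosidases GAA, GLA, GUSB and IDUA, the sulfatase ARSA, the acid sphingomyelinase SMPD1 and DNASE2. GAA was at 79.3–196 GeTMM (median 116) in ISF and 150.1–290.2 GeTMM (median 212) in SF (log2 fold change -0.77 ± 0.22, FDR = 0.00442, lower in 8 of 8 horses). ARSA, which removes sulfate from sulfatide, was at 48.8–111 GeTMM (median 81.2) and 87.1–261 GeTMM (median 100.0) (log2 fold change -0.55 ± 0.18, FDR = 0.0128, lower in 8 of 8 horses). DNASE2 was at 375–771 GeTMM (median 533) and 569–2358 GeTMM (median 748) (log2 fold change -0.63 ± 0.19, FDR = 0.0102), and GLA at 259–457 GeTMM (median 308) and 321–951 GeTMM (median 417) (log2 fold change -0.44 ± 0.16, FDR = 0.0309). For the last 3 genes the highest SF value was that of Moon; without it the FDR was 0.0567 for ARSA, 0.0526 for DNASE2 and 0.131 for GLA, and that of IDUA was 0.0852. Without that library GAA, GUSB and SMPD1 passed (FDR = 0.00742, 0.027 and 0.0413). With 1 whole horse left out, DNASE2, GUSB and SMPD1 were lost without Moon or Ollie, IDUA without Lurie, Moon or Ollie, and GLA without Dealings, Lurie, Moon, Ollie or RimRun (FDR up to 0.16).

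Of the membrane proteins only MCOLN1 passed between the fluids. It lay at 42.6–96.5 GeTMM (median 59.3) in ISF and 70.2–115 GeTMM (median 89.8) in SF at 96 hours (log2 fold change -0.55 ± 0.17, FDR = 0.0246), and at 36.3–65.9 GeTMM (median 58.8) and 80.2–186 GeTMM (median 94.9) at 6 days (log2 fold change -0.91 ± 0.17, FDR = 2.14e-05). Every horse had less in ISF at both times, and at 6 days the fluids did not overlap. With the 96-hour ISF libraries of Dealings and Dreamer set aside its FDR there was 0.06, and the call was lost without Dealings, Flash, Lurie or Ollie (FDR up to 0.0979). At 10 days the log2 fold change was -0.30 and did not pass (FDR = 0.245). LAMP1, LAMP2 and CLN3 passed at no time, with log2 fold changes between -0.26 and 0.31. LAMP2 at 10 days (log2 fold change 0.31 ± 0.13, FDR = 0.0781) passed with the horse as a block (FDR = 0.0323), with Moon's 6-day SF library set aside (FDR = 0.0372) and without Dealings (FDR = 0.0289).

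TFEB was lower in ISF from 96 hours on. It lay at 54.9–132 GeTMM (median 80.8) in ISF and 87.1–210.3 GeTMM (median 140.4) in SF at 96 hours (log2 fold change -0.72 ± 0.18, FDR = 0.00498), at 46.6–91.04 GeTMM (median 64.3) and 65.8–190.0 GeTMM (median 134) at 6 days (log2 fold change -0.95 ± 0.18, FDR = 4.08e-05), and at 54.6–90.6 GeTMM (median 66.7) and 71.02–178 GeTMM (median 129) at 10 days (log2 fold change -0.79 ± 0.19, FDR = 0.00197). Every horse had less TFEB in ISF at each of these times, though the groups overlapped. At 48 hours the log2 fold change was -0.30 and did not pass (FDR = 0.516).

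MITF was lower in ISF in mid culture. At 96 hours it lay at 9.89–37.8 GeTMM (median 23) in ISF and 26.9–45.3 GeTMM (median 33.5) in SF (log2 fold change -0.64 ± 0.18, FDR = 0.0148), and at 6 days at 17.5–47.1 GeTMM (median 26.9) and 30.6–59.6 GeTMM (median 45.9) (log2 fold change -0.63 ± 0.18, FDR = 0.00637), lower in ISF in 7 of 8 horses at both times. With the ISF libraries of Dealings and Dreamer set aside the FDR at 96 hours was 0.0526, and the call was lost without Catnip, Dealings or Flash (FDR up to 0.0949). At 10 days the difference did not pass (log2 fold change -0.16 ± 0.20, FDR = 0.625), after MITF rose in ISF from 6 to 10 days (log2 fold change 0.63 ± 0.19, FDR = 0.0209), a step lost without Catnip, Flash or RimRun (FDR up to 0.106). TFE3 was higher in ISF at 6 days, at 34.2–59.4 GeTMM (median 39.4) against 7.18–39.8 GeTMM (median 31.4) (log2 fold change 0.62 ± 0.16, FDR = 0.00192, 7 of 8 horses). The lowest SF value was that of Moon, the next being 29.8, and without that library the log2 fold change was 0.36 (FDR = 0.00472).

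Whether the difference between the fluids itself changed with time was tested as an interaction. From 48 hours to 6 days it changed for 3 members, all toward higher in ISF: ATP6V0E2 (log2 fold change 1.13 ± 0.31, FDR = 0.019, lost without Catnip, Dealings, Dreamer or Ollie, FDR up to 0.0827), ATP6V1B2 (log2 fold change 0.72 ± 0.20, FDR = 0.0193, lost without Dreamer, Lurie or Ollie, FDR up to 0.0842) and TFE3 (log2 fold change 0.72 ± 0.23, FDR = 0.04997). The call for TFE3 was lost without each horse but Moon (FDR up to 0.162), and with the 96-hour ISF libraries of Dealings and Dreamer set aside (FDR = 0.0508). With the SF library of Moon alone set aside it held (FDR = 0.0436), at a smaller log2 fold change of 0.47. Without that library it did not pass when just the 48-hour and 6-day cultures entered the fit (FDR = 0.0709). At this contrast 5.38% of all genes were called, 3.53% upward and 1.85% downward. By limma voom and with a pseudocount of 0.1 only ATP6V1B2 passed (FDR = 0.0211 and 0.021), with ATP6V0E2 at 0.128 and 0.0623 and TFE3 at 0.0601 and 0.0587. TFE3 was also lost with no filter on low values (FDR = 0.0797), and ATP6V1B2 and TFE3 when just the 48-hour and 6-day cultures entered the fit (FDR = 0.0558 and 0.248). With the horse as a block 9 members passed, 5 upward and 4 downward. From 48 hours to 10 days no member passed, though 6 had an unadjusted p under 0.05 by limma and 2.99% of all genes were called, 1.59% upward and 1.41% downward. With the horse as a block 2 passed, and by limma voom 0 did. From 6 to 10 days none passed either, with 5 at an unadjusted p under 0.05, 0 with the horse as a block, 0 by limma voom and 0.226% of all genes called, 0.0824% upward. For TFEB, the difference at 6 days was not shown to exceed that at 48 hours (log2 fold change -0.65 ± 0.26, FDR = 0.145), except with the horse as a block (FDR = 0.0479).

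Of 72 further tested genes of the pathway, chosen for other hydrolases, transporters, pump assembly, sorting and control of MiT/TFE factors, 42 rose and 12 fell from 0 to 48 hours in ISF, and 41 rose and 8 fell in SF, where 25.3% and 22.3% of all genes rose. Their median log2 fold change was 0.54 and 0.61 over this step. From 48 to 96 hours 21 rose and 1 fell in ISF, or 14 and 1 with the 96-hour ISF libraries of Dealings and Dreamer set aside, and 30 rose and 6 fell in SF. Between the fluids 0 passed at 48 hours. At 96 hours 3 were higher and 7 lower in ISF (6.16% and 4.3% of all genes), or 2 and 6 without those 2 libraries. At 6 days 16 were higher and 11 lower (16.7% and 13.6% of all genes), or 16 and 15 with Moon's 6-day SF library set aside, and at 10 days 5 were higher and 2 lower (9.95% and 10.8%), or 13 and 5.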

How the data were processed

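RNA sequencing was made from BMNC of 8 horses before culture and after culture in SF or ISF (68 libraries in 9 groups). According to the submitters' processing notes, reads were aligned with STAR 2.7.2a to EquCab 3.0, and the authors normalised the counts per gene with edgeR to GeTMM, a length-corrected value of the RPKM kind, which is the deposited unit. Differential expression by the authors used DESeq2, not repeated here. Gene-level read counts were recovered from the steps between values (24064 of 24065 entries above 0 were whole reads within 0.02 reads), giving 15.7 to 36.0 M reads per library, so low values carry more counting error.

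Values were tested as log2(GeTMM + 1) with limma 3.58.1 in R 4.3.3 (linear model of 9 groups, moderated with trend), on 14570 genes with at least 0.5 GeTMM in 7 or more libraries, and adjusted over these genes (threshold 0.05). The 17 comparisons were ISF against SF at each time, steps in time within each fluid, and changes of the fluid difference. The script was tested on simulated data, for the fit with independent errors and no horse effect. That test cannot show how the fit handles libraries of the same horse. The main fit held no term for horse, so it took libraries of the same horse as independent. Deviations from group means correlated at 0.18 to 0.365 within horses (all pairs 0.283) and -0.0401 between horses. The horse as a block was an alternative. The other alternatives were the pseudocount, the filter, rescaling, a fold limit, fits of only the groups compared, leaving out each horse, leaving out the libraries that stood apart, and, chosen after seeing the data, limma voom on recovered reads and a fit of only the groups compared with Moon's 6-day SF library set aside. Before rescaling, the group means of the library medians differed by at most 0.0641 (log2).

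Named members were TFEB, TFE3, MITF, the 4 membrane proteins and, per fluid comparison and for 0 to 48 hours, up to 5 called members with the highest and up to 5 with the lowest fold change, a mean of at least 5 GeTMM in 1 group and the same direction in every horse. Others are named where counts needed them. Members, pathway lists and marker lists (macrophage, T cell, B cell, neutrophil precursor, erythroid, fibroblast or stromal, cell cycle, osteoclast) were chosen with earlier results of these data known. All 68 columns of values were mapped to samples, with 0 left unused. No sequence is shown.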

Additional observations from a re-analysis of the deposited data

Results flagged for a closer look

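Of 189 groups of libraries of 21 named members, 13 held 1 library far from the others, and chance alone marks about 1 in 20 groups. The SF library of Moon at 6 days supplied 5 of them: DNASE2 at 2358 GeTMM (569 to 839.7 in the other libraries), GLA at 951 (321 to 527), LAMP1 at 353 (1307 to 1947), TFE3 at 7.18 (29.8 to 39.8) and TPP1 at 17.9 (373 to 726). This library also held fewer genes above 0 and a larger summed GeTMM than any other, and its part in these values was not tested.

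The other 8 were spread over 6 horses. ARSA reached 168 GeTMM in the SF library of Dealings at 10 days (63.6 to 84.5 in the others). ATP6V0E2 in RimRun was 1.13 in ISF at 48 hours (2.56 to 3.28 in the others) and 6.42 in SF at 6 days (1.66 to 3.25). ATP6V1B2 was 345 in the ISF library of Catnip at 10 days (549 to 711). ATP6V1E1 was 253 in the SF library of Moon at 96 hours (180.0 to 195). CLN3 was 20.3 in the 0-hour library of Ollie (29.0 to 38.4) and 29.8 in the ISF library of Moon at 10 days (44.9 to 56.4). LAMP1 was 887 in the ISF library of Lurie at 96 hours (1282 to 1687).

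The difference between ISF and SF changed from 48 hours to 6 days for 3 members by the interaction test in limma: ATP6V0E2 by a log2 fold change of 1.13 (FDR = 0.019), ATP6V1B2 by 0.72 (FDR = 0.0193) and TFE3 by 0.72 (FDR = 0.04997). Only ATP6V1B2 still passed by limma voom or with a pseudocount of 0.1, and with 1 horse left out ATP6V1B2 was lost for 3 horses, ATP6V0E2 for 4 and TFE3 for 7 of 8.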

How the results depend on the processing

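Over 126 values of the named members (the fluids at 4 times and the first 48 hours in each fluid) and up to 17 alternatives each, 1966 of 2037 kept their direction and their side of the FDR threshold, 53 lost and 18 gained a call, and 0 reversed. Neither another pseudocount of 0.1, no filter on low values, rescaling to 1 median nor limma voom changed any of these calls. Counts of members called moved by over 1.5 times as follows. When log2 fold changes of 1 or more in size were also required, they were 1 in each of the fluid comparisons at 96 hours, 6 days and 10 days, 24 and 21 from 0 to 48 hours in ISF and SF, 1 and 5 from 48 to 96 hours, 0 from 96 hours to 6 days in ISF, 0 and 0 from 6 to 10 days, 27 from 0 hours to 10 days in SF and 1 for the change of the fluid difference from 48 hours to 6 days. With the horse as a replicate block they were 1 (SF, 96 hours to 6 days), 3 (SF, 6 to 10 days), 9 and 2 (change of the fluid difference from 48 hours to 6 and to 10 days), and beside the values given above the block changed no other call of a named result except NEU1 (FDR = 0.0167), GAA (FDR = 0.0314) and ATP6V1E1 (FDR = 0.0255) at 96 hours, which it gained. In fits of only the groups compared, 7 members were called between the fluids at 6 days, 0 in SF from 6 to 10 days, also 0 without the SF library of Moon, and 1 and 1 for the changes to 6 and to 10 days. From 96 hours to 6 days in ISF 3 were called after rescaling and 2 with no filter. The change to 6 days had 1 call with a pseudocount of 0.1 and 1 by limma voom, and that to 10 days 2 without the SF library of Moon. With the ISF libraries of Dealings and Dreamer set aside 3 were called at 96 hours. With 1 horse left out the counts ran from 3 to 8 at 96 hours (3 without Dealings or Lurie) and 7 to 17 at 10 days (7 without either). They ran from 2 to 7 from 96 hours to 6 days in ISF (2 or 3 without any horse but Moon), 1 to 3 from 6 to 10 days in ISF (1 without Catnip, Dealings, Flash, Ollie or RimRun) and 0 to 4 in SF (0 without Lurie, Moon or Ollie, 2 without Dealings, 4 without RimRun). For the change of the fluid difference they ran from 0 to 5 to 6 days (0 without Dreamer or Ollie, 1 without Catnip, Dealings or Lurie, 5 without Moon) and 0 to 3 to 10 days (1 without Dealings, 3 without Moon). Beyond these constructions the cause of each change was not tested. Depth limits the low members ATP6V0E2, ATP6V0D2 at 0 hours, ATP6V1C2 and ASAH1.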

Other observations

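Among the 72 further lysosomal genes, the following were picked after their values were seen. SLC11A1, the metal transporter NRAMP1 of phagosomes, was higher in ISF by log2 fold changes of 1.62 at 96 hours (FDR = 1.96e-04), 2.45 at 6 days (FDR = 9.53e-09) and 1.5 at 10 days (FDR = 6.23e-04). LIPA, the acid lipase of cholesteryl esters, was lower in ISF at 96 hours (log2 fold change -1.34, FDR = 3.84e-04) and 6 days (-0.83, FDR = 0.0158), with 253–646 GeTMM (median 445) in ISF and 667–1512 GeTMM (median 1168) in SF at 96 hours. MCOLN2, a relative of the channel MCOLN1, was lower at the same times (-1.46, FDR = 4.03e-04, and -1.58, FDR = 3.14e-05).

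SMPDL3A, a relative of acid sphingomyelinase, and SCARB2, the receptor that carries glucocerebrosidase to lysosomes, were lower in ISF at 96 hours, 6 days and 10 days, with log2 fold changes of -1.20, -1.31 and -0.72 for the former and -0.71, -0.93 and -0.62 for the latter. RPTOR, a subunit of mTORC1, was higher at 96 hours and 6 days (0.66, FDR = 0.00133, and 0.75, FDR = 7.57e-05). RRAGD, a GTPase that ties the MiT/TFE factors to mTORC1, was lower at the same times (-0.59, FDR = 0.00767, and -0.86, FDR = 2e-05). NPC2, a cholesterol carrier of the lysosome lumen, was higher at 10 days, with 4678–8421 GeTMM (median 5915) in ISF and 3096–5032 GeTMM (median 3899) in SF (log2 fold change 0.67 ± 0.17, FDR = 0.00194). TFEC, the fourth gene of the MiT/TFE family, rose from 0 to 48 hours in ISF and SF (log2 fold changes 0.76 and 0.82). At 6 days it lay at 15.4–43.4 GeTMM (median 21.9) in ISF and 0.669–22.7 GeTMM (median 19.03) in SF (log2 fold change 0.73 ± 0.29, FDR = 0.0445). Without the SF library of Moon that call was lost (log2 fold change 0.28, FDR = 0.275), while SMPDL3A, SCARB2, RPTOR and RRAGD still passed at 6 days. T cell, B cell and neutrophil precursor markers were lower in ISF at 6 days, and their part in these values was not tested.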
